A study of Homo sapiens with 6 samples.

Results

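The subject here is the late-numbered known microRNAs (miRNAs), which are the human miRNAs with a catalogue number of 1000 or above. They were measured in exosomes, the small vesicles bounded by membrane that cells shed into their medium. The members were every known human miRNA with such a number in the authors' tables of higher and lower miRNAs, apart from 11 entries left out by name. That gave 52 members of 161 known miRNAs and of 276 entries in all, the other 115 being miRNAs the authors predicted from their own reads. The tested exosomes came from HaCaT cells given 0.4 mM hydrogen peroxide (H2O2), an oxidant, and the control exosomes from untreated HaCaT cells. HaCaT, an established cell line, derives from human skin keratinocytes, and both groups were of this line with no genetic change named. Each group had 3 libraries, labelled biological replicates, of exosomes collected from culture medium by ultracentrifugation. The labels give 24, 25 and 26 h for H2O2 replicates 1, 2 and 3, so that time and replicate number cannot be told apart, while the study's text gives 24 h for the group. The 1 cell line and a preparation without a further purification step named in the labels limit the groups as a model of skin vesicles.

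MiRNAs are short RNAs cut from a hairpin precursor. Each loads into an Argonaute protein and pairs with messenger RNAs through its seed, bases 2 to 8 from the 5′ end, which lowers the output of those messengers. Catalogue numbers were handed out in order of report, so that high numbers mostly belong to miRNAs found by deep sequencing, many of them scarce, some of them cut from introns whose splicing itself frees 1 end of the hairpin (mirtrons), and some overlapping other genes. Exosomes carry miRNAs out of keratinocytes, and their level there depends on both the cell's supply and what is packed.

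The mature sequences that the results turn on are shown first, from RefSeq on GRCh38.p14, with the seed in capitals. The table held 46 of the 52 members. Not in it were miR-3195, miR-3609, miR-6866-5p, miR-6747-3p and 2 others. The first set is the most abundant member listed as higher, the 3 most abundant that fell, and the member cut from an intron of a keratin gene.
miR-7704: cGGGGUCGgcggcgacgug
miR-1301-3p: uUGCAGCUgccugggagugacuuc
miR-3158-3p: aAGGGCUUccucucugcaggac
miR-1271-5p: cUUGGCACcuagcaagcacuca
miR-6510-3p: cACCGACUcugucuccugcag

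The next set shows members beside an earlier-numbered miRNA of the same seed, since the pair would be read alike by a target. MiR-4429 has the seed of the miR-320 family, miR-1271-5p (above) that of miR-96-5p, and miR-3184-5p that of miR-423-5p.
miR-4429: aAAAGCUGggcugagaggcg
miR-320b: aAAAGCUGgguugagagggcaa
miR-320c: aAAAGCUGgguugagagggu
miR-96-5p: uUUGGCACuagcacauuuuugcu
miR-3184-5p: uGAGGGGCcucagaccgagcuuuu
miR-423-5p: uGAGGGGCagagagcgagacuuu

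The last set shows members that face another miRNA on the opposite DNA strand or are near copies of each other, where reads of 1 strand or copy must be kept apart from the other. MiR-3065-5p is the reverse complement of miR-338-3p over 22 bases. MiR-4520-3p and miR-4520-2-3p share an unbroken run of 20 bases, and miR-1268a is contained whole, at 18 bases, in miR-1268b.
miR-3065-5p: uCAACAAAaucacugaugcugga
miR-338-3p: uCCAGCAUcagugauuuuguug
miR-4520-3p: uUGGACAGaaaacacgcaggaa
miR-4520-2-3p: uUUGGACAgaaaacacgcaggu
miR-1268a: cGGGCGUGgugguggggg
miR-1268b: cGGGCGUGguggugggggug

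The tables used here hold entries that the authors selected for a difference. No entry of the authors' deposited table had a p above 0.049 or an absolute log2 fold change under 1.03. Counts of calls therefore describe selected entries and were read against all entries tested the same way. Library totals were 3079094, 2449856 and 4131478 reads in H2O2 replicates 1 to 3, and 3163552, 2644362 and 5405525 reads in untreated replicates 1 to 3. Levels are given as CPM, the count scaled to those totals, so that a level is a share of the library, and more vesicles carrying a miRNA cannot be told apart from more copies per vesicle. MiR-1246, left out by the rule, held 274500 CPM in H2O2 replicate 3 and at most 11470 CPM in any untreated library, and its reads are part of the totals. Of 12 markers of serum, blood cells and liver, 5 were listed, all as lower, and their summed level was 76.7 to 447 CPM in H2O2 libraries and 510 to 1294 CPM in untreated libraries. Of 9 keratinocyte miRNAs 3 were listed, 1 higher and 2 lower, at a summed 5057 to 5764 CPM in H2O2 libraries and 10170 to 13690 CPM in untreated libraries. The part of these markers in the results on late-numbered miRNAs was not tested.

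The late-numbered miRNAs kept as members were mostly listed as lower in H2O2 exosomes. Of the 52 members 15 were listed higher and 37 lower, while the 109 other known miRNAs were listed higher in 64 cases and lower in 45. Those 109 include the 11 late-numbered entries left out by the rule, which widens the contrast. Leaving them out also raised the members' own share listed lower and reduced their share that rose. Every comparison of the members with other entries below carries this effect of the rule. The 93 known miRNAs numbered below 1000 were listed higher in 50 cases and lower in 43. Counts were high enough to test in 32 members, which reached 5 counts in 3 or more libraries. Of these 4 rose, 21 fell and 7 did not pass (edgeR's quasi-likelihood test, Benjamini-Hochberg adjusted p under 0.05). Among the 21, miR-4676-3p, miR-3179 and miR-3140-3p reached the filter only in untreated libraries, where they were high. Of the tested members 12.5% rose and 65.6% fell, while over all 186 known and predicted entries tested 37.6% rose and 42.5% fell. The median log2 fold change was -1.46 over the tested members and 1.03 over all entries tested. It was -1.227 over all known entries tested and 0.921 over those numbered below 1000. With small changes left out by the authors' selection, such a median can change sign with a small imbalance and is not a typical change. H2O2 and untreated libraries did not overlap for 44 members, which is 84.6% of them, where 82.2% of all entries had no overlap. The share without overlap was thus close to the background. The tilt toward lower entries was a feature of which entries were listed and of the rule that chose the members. It has no test of its own.

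How many members passed depended on every library. Without H2O2 replicate 1 no member rose and 1 fell, and without H2O2 replicate 2 the counts were 2 and 11. Without H2O2 replicate 3 they were 2 and 4. Leaving out untreated replicate 1 gave 2 and 7, untreated replicate 2 gave 2 and 4, and untreated replicate 3 gave 4 and 8, with only 1 of those 4 rises also called when all libraries were used. Directions did not turn in any of these fits for the members tested.

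Summed over their members, the 15 listed higher reached 204, 224 and 132 CPM in H2O2 replicates 1 to 3, against 56.9, 79.8 and 44.6 CPM in untreated replicates 1 to 3. The 37 listed lower summed to 169, 170 and 171 CPM in H2O2 libraries and to 434, 441 and 622 CPM in untreated libraries. These directions follow from how the entries were listed. The 2 sums differ in make-up. MiR-7704 alone supplied 54.2% of the higher sum in H2O2 exosomes, and miR-1301-3p, miR-3158-3p and miR-1271-5p together 59.6% of the lower sum in untreated exosomes. Untreated replicate 3 stood highest of its group in the lower sum, while the 3 H2O2 libraries lay close together. That closeness depends on totals that include miR-1246, at 33240, 2608 and 274500 CPM in H2O2 replicates 1 to 3. With those reads left out of the totals, H2O2 replicate 3 would stand higher beside the other H2O2 libraries in both sums. The closeness is thus no measure of how well the H2O2 libraries repeat each other.

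**Figure D1:**
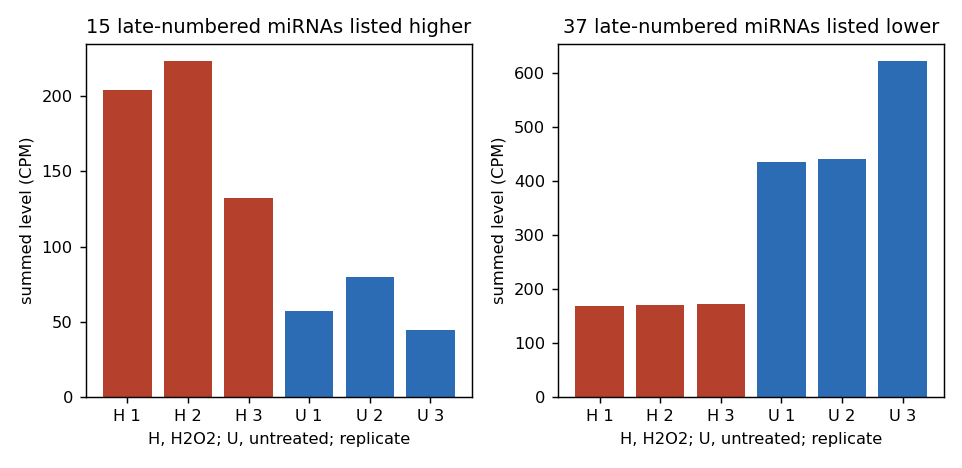
Summed level, in CPM, of the 15 late-numbered miRNAs listed higher (left) and the 37 listed lower (right), with 1 bar per library and H2O2 replicates left of untreated ones. The lower set sums to between 169 and 171 CPM in H2O2 libraries and to between 434 and 622 CPM in untreated libraries. The totals include the miR-1246 reads, on which the closeness of the H2O2 libraries depends.

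The members were scarce. Their mean level over the 6 libraries had a median of 2.6 CPM and ran from 0.285 CPM to 124 CPM, while the 93 known miRNAs numbered below 1000 had a median of 25.8 CPM. Only 9 members averaged 10 CPM or more, 26 lay between 1 and 10 CPM and 17 lay under 1 CPM. Every one of the 9 at 10 CPM or more had groups that did not overlap, beside 82.2% of all entries. Of these 9, 2 rose, 6 fell and 1 did not pass, beside 37.6% that rose and 42.5% that fell over all entries tested. None of the 17 under 1 CPM had enough counts to be tested.

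**Figure D2:**
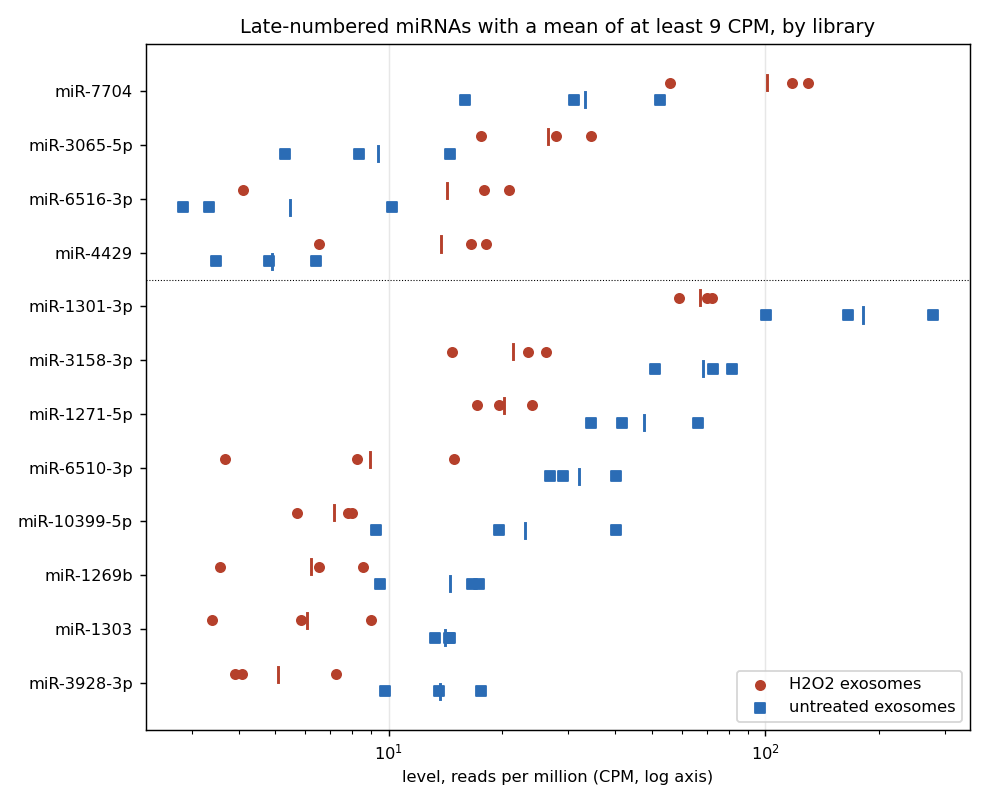
Level of the most abundant late-numbered miRNAs in each library, in CPM on a log axis, with circles for H2O2 exosomes, squares for untreated exosomes and upright bars for group means. Entries over the dotted line were listed higher and those under it lower; miR-6516-3p is the member shown whose libraries overlap, with 4.12 CPM in its lowest H2O2 library and 10.2 CPM in its highest untreated library.

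Among the members that rose, miR-7704 was the most abundant. It had 118, 130 and 55.9 CPM in H2O2 replicates 1 to 3, against 30.98, 52.6 and 15.9 CPM in untreated replicates 1 to 3. All H2O2 libraries lay above all untreated ones, by a small margin between the lowest of H2O2 and the highest of untreated. It averaged 101 ± 39.8 CPM in H2O2 exosomes and 33.2 ± 18.4 CPM in untreated exosomes (SD, n = 3 each), which is 1.61 ± 0.54 on the log2 scale (SE; edgeR adjusted p = 0.0275). The call was lost without H2O2 replicate 1 or 2 or untreated replicate 1 or 3. Its hairpin lies in an exon of HOXD1, a homeobox transcription factor gene of body patterning, on chromosome 2 at 176188843 to 176188901, plus strand (GRCh38). The mature sequence is 19 bases long with a GC content of 84.2%, and it matches the HOXD1 transcript in full, so that a fragment of that messenger would be counted with it. The transcripts searched did not cover the large nuclear ribosomal RNAs, so a match there was not tested.

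MiR-3609 had the largest rise of the tested members; it was picked for that after its values were seen. It had 14.3, 7.76 and 6.78 CPM in H2O2 replicates 1 to 3, and 3.16, 1.89 and 0.555 CPM in untreated replicates 1 to 3. The groups were well apart, and replicate 1 was the highest library of each. The log2 fold change was 2.41 ± 0.69 (SE; edgeR adjusted p = 0.0202), a call lost only without H2O2 replicate 1 among the 6 fits with a library left out. The hairpin lies in an intron of TRRAP, a scaffold of histone acetyltransferase complexes, on chromosome 7 at 98881650 to 98881729.

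MiR-3065-5p is the strand that faces miR-338-3p, a miRNA known from maturing oligodendrocytes. Its level was 17.5, 27.8 and 34.4 CPM in H2O2 replicates 1 to 3, against 14.5, 5.29 and 8.33 CPM in untreated replicates 1 to 3. The lowest H2O2 library was just above the highest untreated library, and both were replicate 1. Its log2 fold change came to 1.496 ± 0.53 (SE; edgeR adjusted p = 0.0306). The call was lost under median-of-ratios scaling and without any H2O2 replicate or untreated replicate 2 or 3. The hairpin lies outside annotated genes of its own strand on chromosome 17 at 81125877 to 81125955, plus strand, and both arms of the facing miR-338 hairpin were absent from the tables used here. Whether strand was used in the counting was not given in the sources used here.

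MiR-4429 carries the seed AAAGCUG of the miR-320 family. It had 16.6, 6.53 and 18.2 CPM in H2O2 replicates 1 to 3, against 3.48, 6.43 and 4.81 CPM in untreated replicates 1 to 3. H2O2 replicate 2 stood level with the highest untreated library, and the other H2O2 libraries were well above it. This gave a log2 fold change of 1.495 ± 0.56 (SE; edgeR adjusted p = 0.0351). The call was lost under median-of-ratios scaling, and also without H2O2 replicate 1 or 3 or any untreated replicate.

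MiR-320e and a predicted entry matched to a mouse miR-320, neither of them members and both selected for a difference, moved the same way. MiR-320e was not among the miRNAs found to share the seed of miR-4429. MiR-320b, miR-320c and miR-320d, which share the seed of miR-4429, were not listed, so their change is not known here. MiR-320e had 68.5, 35.9 and 84.5 CPM in H2O2 libraries and 25.0, 20.8 and 24.1 CPM in untreated libraries, a log2 fold change of 1.44 ± 0.45 (SE; edgeR adjusted p = 0.0253). A predicted entry that the authors matched to the mouse miR-320-3p had 70.8, 20 and 71.2 CPM in H2O2 libraries and 10.8, 9.08 and 9.99 CPM in untreated libraries. In these entries, as in miR-4429, replicate 2 was the lowest H2O2 library. MiR-4429 and miR-320b share their first 10 bases and part ways at few positions after that, so that reads could pass between such entries if mismatches were allowed; the setting was not given in the sources used here.

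Of the members listed higher and tested, 4 did not pass. MiR-6516-3p had 17.9, 20.8 and 4.12 CPM in H2O2 libraries and 2.85, 10.2 and 3.33 CPM in untreated libraries (log2 fold change 1.40 ± 0.74 SE, edgeR adjusted p = 0.0952). Its groups overlapped through H2O2 replicate 3 and untreated replicate 2. Its hairpin overlaps SCARNA16, a small Cajal body RNA that guides changes to spliceosomal RNAs, and its sequence matches SCARNA16 and the transcript SNHG20 in full. Reads from that RNA cannot be told apart from the miRNA by sequence.

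MiR-1226-3p, a mirtron, comes from a short intron of the RNA helicase gene DHX30, and both ends of its hairpin fall on the splice sites. It had 7.15, 11.8 and 4.12 CPM in H2O2 replicates 1 to 3, against 0.632, 2.27 and 6.29 CPM in untreated replicates 1 to 3. Untreated replicate 3 reached into the H2O2 range, and the difference did not pass (log2 fold change 1.23 ± 0.75 SE, edgeR adjusted p = 0.137). Without untreated replicate 3 it passed, at 2.39. Of the listed human miRNAs this is the member nearest the number limit, and the nearest miRNA outside it is miR-877-3p. MiR-1226-3p averaged 7.70 ± 3.89 CPM in H2O2 exosomes and 3.06 ± 2.91 CPM in untreated exosomes, and miR-877-3p averaged 8.80 ± 8.04 CPM in H2O2 exosomes and 2.18 ± 1.19 CPM in untreated exosomes (SD, n = 3 each).

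Of the members that fell, miR-1301-3p was the most abundant of all 52. It had 69.8, 72.3 and 59.1 CPM in H2O2 replicates 1 to 3, against 166, 101 and 279 CPM in untreated replicates 1 to 3. The H2O2 libraries lay close together and all below the untreated ones, which were widely spread. Means were 67.0 ± 7.02 CPM in H2O2 exosomes and 182 ± 90.2 CPM in untreated exosomes (SD, n = 3 each), and the log2 fold change was -1.44 ± 0.44 (SE; edgeR adjusted p = 0.0253). The call was lost without H2O2 replicate 1 or 3 or untreated replicate 1. The hairpin lies in an intron of DNMT3A, a DNA methyltransferase gene, on chromosome 2 at 25328640 to 25328721, minus strand.

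Among the falls with at least 10 CPM, miR-3158-3p kept its call in the most fits with a library left out, 5 of 6. It had 23.4, 14.7 and 26.1 CPM in H2O2 replicates 1 to 3, against 50.9, 72.6 and 81.8 CPM in untreated replicates 1 to 3. The gap between the groups was wide beside the spread within each. The log2 fold change was -1.67 ± 0.43 (SE; edgeR adjusted p = 0.0143), with a range of -1.85 to -1.47 when 1 library was left out, and the call was lost only without H2O2 replicate 1. Its 2 hairpins lie on opposite strands of the same stretch, chromosome 10 at 101601417 to 101601497, in an intron of DPCD on the plus strand. Each gives the same mature sequence, so that the reads cannot be split between them.

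MiR-1271-5p shares its seed UUGGCAC with miR-96-5p, a miRNA of sensory hair cells. It had 17.2, 19.6 and 24.0 CPM in H2O2 replicates 1 to 3, against 41.7, 34.4 and 66.4 CPM in untreated replicates 1 to 3. All untreated libraries lay above all H2O2 libraries. On the log2 scale the difference was -1.23 ± 0.44 (SE; edgeR adjusted p = 0.0306). The call was lost when totals left out the miR-1246 reads, with the factor matching the authors' fold changes, and without any H2O2 replicate or untreated replicate 1 or 3. The hairpin lies in an intron of ARL10, and miR-96-5p was not among the listed entries.

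MiR-6510-3p comes from an intron of KRT15, the gene of a keratin of basal keratinocytes. It had 14.9, 3.67 and 8.23 CPM in H2O2 replicates 1 to 3, against 40.1, 26.9 and 29.04 CPM in untreated replicates 1 to 3. The H2O2 libraries spread widely, and all were well below the untreated ones. The log2 fold change was -1.83 ± 0.57 (SE; edgeR adjusted p = 0.0253), lost without H2O2 replicate 3 or untreated replicate 1. The precursor lies on chromosome 17 at 41517164 to 41517217, minus strand, and runs 2 bases past the 3′ splice site.

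MiR-10399-5p lies in an exon of ZC3HAV1, the gene of a zinc-finger antiviral protein, and matches that transcript in full. It had 7.80, 5.72 and 7.99 CPM in H2O2 replicates 1 to 3, against 19.6, 40.1 and 9.25 CPM in untreated replicates 1 to 3. The groups did not overlap, but untreated replicate 3 stood near the H2O2 libraries and untreated replicate 2 far above them. The log2 fold change of -1.66 ± 0.60 (SE; edgeR adjusted p = 0.032) shrank to -0.99 without untreated replicate 2, and only the fit without untreated replicate 3 kept the call among those with a library left out. The call was also lost with limma on log2(CPM + 5).

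Other members with at least 10 CPM in untreated exosomes had smaller levels. MiR-1303 had 5.85, 8.98 and 3.39 CPM in H2O2 libraries and 14.5, 13.2 and 14.4 CPM in untreated libraries (log2 fold change -1.23 ± 0.51 SE, edgeR adjusted p = 0.0485). MiR-3928-3p had 3.90, 4.08 and 7.26 CPM in H2O2 libraries and 9.80, 13.6 and 17.6 CPM in untreated libraries (-1.41 ± 0.51 SE, edgeR adjusted p = 0.032). Both were lower in every H2O2 library than in any untreated library, and both calls were lost in most fits with a library left out, miR-1303 keeping its call in 1 of 6 and miR-3928-3p in 2 of 6. Both calls were also lost when totals left out the miR-1246 reads, and that of miR-1303 with no filter and with the factor matching the authors' fold changes.

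MiR-1269b had 3.57, 8.57 and 6.54 CPM in H2O2 libraries and 9.48, 17.4 and 16.7 CPM in untreated libraries. Its groups did not overlap either, yet it stood just outside the threshold (log2 fold change -1.22 ± 0.53 SE, edgeR adjusted p = 0.0528). It passed under median-of-ratios and TMM scaling, the minimum of 20 counts, the replicate block, DESeq2, limma on log2(CPM + 1) and known entries alone. Its near copy miR-1269a, with the same seed, was not listed.

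The largest falls among tested members were in scarce ones. MiR-4676-3p, from an intron of MCU, the gene of the mitochondrial calcium channel, had 0.325, 0.816 and 0.242 CPM in H2O2 libraries and 1.90, 2.27 and 2.77 CPM in untreated libraries. On the log2 scale the change was -2.37 ± 0.68 (SE; edgeR adjusted p = 0.0202). It reached the count filter only through the untreated libraries, where it was high. The filter had thus already favoured a fall, and the p-value is no support for one. The call was lost without H2O2 replicate 1 or 3, was kept without H2O2 replicate 2, and could not be tested with any untreated library left out. Each H2O2 value rests on 1 or 2 reads, and a predicted entry repeats its counts.

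MiR-3179 had 0, 1 and 4 counts in H2O2 replicates 1 to 3, and 9, 8 and 13 counts in untreated replicates 1 to 3. It fell as far, at -2.37 ± 0.78 (SE; edgeR adjusted p = 0.0262), but only the 3 fits that left out an H2O2 library could test it again. MiR-3179 too reached the count filter only through the untreated libraries, so its p-value is no support for a fall. Among these the call was lost without H2O2 replicate 1 or 2, and without H2O2 replicate 3 it passed at -3.65. Its copies on chromosome 16 have 1 mature sequence, and 4 predicted entries carry the same counts. In all, 6 of the 52 members share every count with a predicted entry, and whether these are the same reads was not tested.

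**Figure D3:**
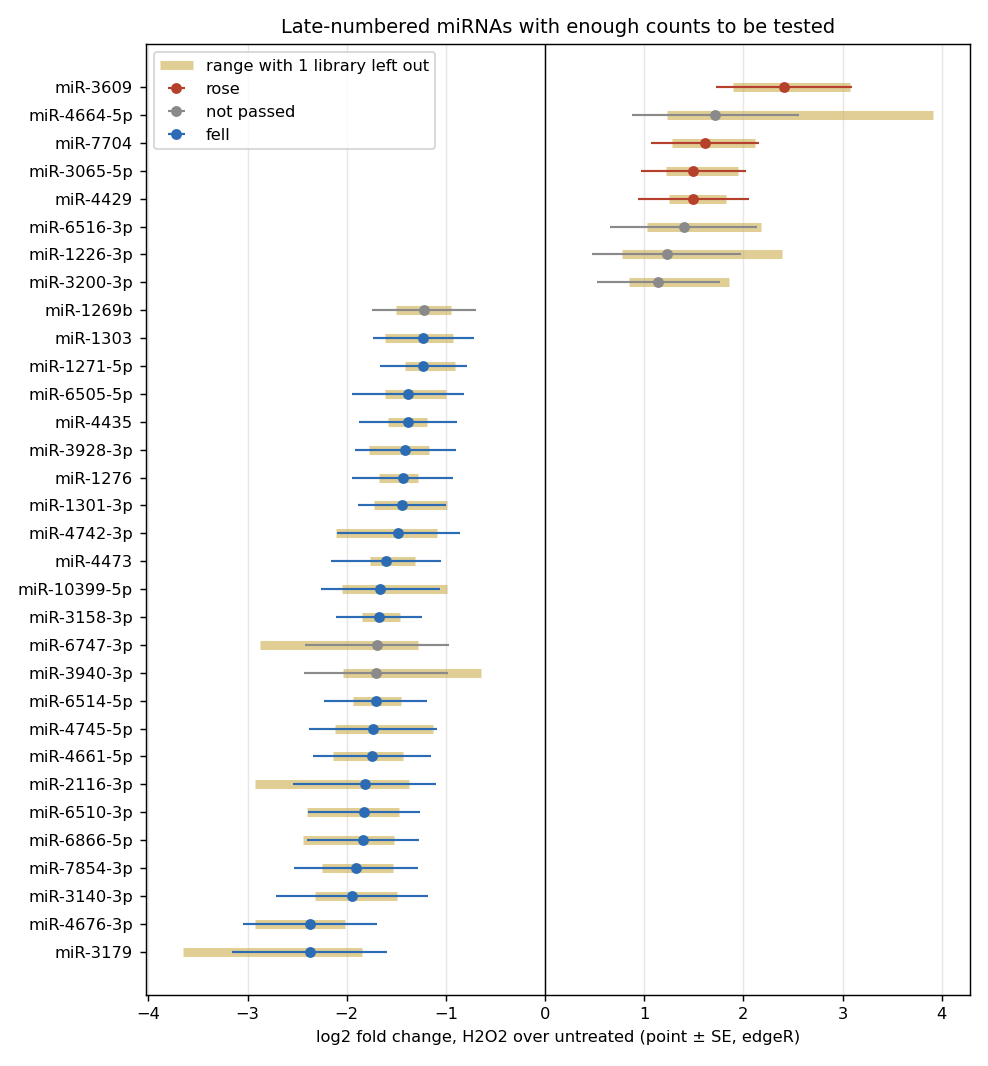
Log2 fold change, H2O2 over untreated, of the 32 tested late-numbered miRNAs, as a point with its SE and coloured by whether it rose, fell or did not pass, with the range of values when 1 library is left out as a pale band. No band crosses 0; the bands of miR-3940-3p and miR-1226-3p come nearest to it, at -0.65 and 0.78.

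A group of 11 members comes from hairpins with an end within 10 bases of a splice site, the layout of mirtrons and their tailed forms, and 8 of these end exactly at the 3′ splice site. Of the 11, 2 were listed higher and 9 lower. Of the 8 tested none rose, 6 fell and 2 did not pass, beside the 37.6% that rose and 42.5% that fell over all entries tested. The 24 members elsewhere in introns were listed higher in 7 cases and lower in 17, and of the 16 tested 1 rose, 12 fell and 3 did not pass. Members outside genes numbered 12, with 4 listed higher and 8 lower, and of the 5 tested 2 rose, 2 fell and 1 did not pass. Members in exons numbered 5, with 2 listed higher and 3 lower, and of the 3 tested 1 rose, 1 fell and 1 did not pass. Of all 276 entries 51.45% were listed lower. Falls made up 75% of tested members at splice sites and 75% elsewhere in introns, beside 65.6% of all tested members. Listed as lower were 81.8% at splice sites, 70.8% elsewhere in introns, 66.7% outside genes and 60% in exons, beside 71.15% of all members. The tested members outside genes and in exons were too few to tell these positions from introns. A member with any hairpin in an intron of any transcript was counted under introns. Thus miR-3179, with a copy in an exon, and miR-4523, exonic in some transcripts, are counted there. No test sets these positions apart.

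Apart from miR-6510-3p, those at splice sites were scarce. MiR-6514-5p, from an intron of NXF1, the main messenger RNA export factor, had 4.22, 2.04 and 3.39 CPM in H2O2 libraries and 8.22, 14.4 and 9.62 CPM in untreated libraries. It fell without overlap, with a log2 fold change of -1.71 ± 0.52 (SE; edgeR adjusted p = 0.0253), lost without H2O2 replicate 1 or 3 or untreated replicate 2. MiR-6866-5p, from the exon junction complex gene CASC3, had 0.974, 1.63 and 3.15 CPM in H2O2 libraries and 6.95, 8.70 and 5.92 CPM in untreated libraries. Its groups were also apart (-1.84 ± 0.57 SE, edgeR adjusted p = 0.0253), and the call was lost without H2O2 replicate 1 or 2 or untreated replicate 1 or 2.

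MiR-6747-3p, from the translation elongation factor gene EEF1G, did not pass. It had 0.65, 4.49 and 0.968 CPM in H2O2 libraries and 7.59, 7.18 and 4.26 CPM in untreated libraries. H2O2 replicate 2 overlapped the untreated range, and the log2 fold change of -1.70 ± 0.73 (SE; edgeR adjusted p = 0.0528) became -2.88 and passed without that library. With all libraries it passed under median-of-ratios and TMM scaling, the replicate block, DESeq2, both limma fits and known entries alone. MiR-6797-5p, from the ribosomal protein gene RPS19, and miR-6871-5p, from the signalling enzyme gene PLCG1, had no read in any H2O2 library.

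The 2 arms of miR-3940, cut from 1 hairpin in an exon of KHSRP, the gene of an RNA-binding protein that takes part in miRNA maturation, were listed in opposite directions. The 5p arm, listed higher, had 3, 7 and 2 counts in H2O2 replicates 1 to 3, against 0, 0 and 4 counts in untreated replicates 1 to 3. The 3p arm, listed lower, had 4, 2 and 7 counts in H2O2 replicates 1 to 3, against 6, 6 and 45 counts in untreated replicates 1 to 3. The 5p arm overlapped between groups, and the 3p arm rested on untreated replicate 3. The 5p arm had too few counts to be tested. The 3p arm did not pass (log2 fold change -1.70 ± 0.73 SE, edgeR adjusted p = 0.0521) and came to -0.65 without untreated replicate 3. It passed under median-of-ratios and TMM scaling, DESeq2 and known entries alone, and the difference between the arms was not tested.

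The 20 members with too few counts had at most 16 reads in any library, and the authors' deposited table gives the largest fold changes to some of them. In the authors' deposited table the log2 fold changes of these ran from -5.22 to -2.22 among those listed lower and from 2.11 to 4.32 among those listed higher. For 8 of them 1 group had no read at all, and the ratio was set against 3 counts over the 3 libraries of that group, a floor chosen as an upper limit for a count of 0. The other group's count was taken as it stands, so that these bounds leave out its own counting error and the spread between libraries. MiR-4520-3p had 0 counts in H2O2 exosomes and 16 in untreated exosomes, at least 4.60-fold lower, and miR-4520-2-3p had 0 and 15, at least 4.31-fold lower. These come from hairpins that face each other on chromosome 17 at 6655440 to 6655509 and 6655449 to 6655502. MiR-6797-5p and miR-6871-5p, with 0 counts in H2O2 exosomes and 12 each in untreated exosomes, were at least 3.45-fold lower.

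Smaller bounds held for the rest. MiR-6724-5p, with 0 counts in H2O2 exosomes and 8 in untreated exosomes, was at least 2.30-fold lower, and miR-3126-5p, with 0 and 7, at least 2.01-fold lower. In the other direction, miR-4523 had 6 counts in H2O2 exosomes and 0 in untreated exosomes, at least 2.32-fold higher, and miR-1283, of the placental chromosome 19 cluster, had 5 and 0, at least 1.94-fold higher. None of these bounds has a test.

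Single libraries carried others. MiR-1268a had 0, 2 and 0 counts in H2O2 replicates 1 to 3, against 3, 16 and 3 counts in untreated replicates 1 to 3. MiR-1268b had 0, 1 and 0 counts in H2O2 libraries, against 3, 16 and 4 counts in untreated libraries. Untreated replicate 2 held most reads of both, and with miR-1268a contained in miR-1268b reads of the shared 18 bases cannot be assigned by sequence. MiR-1915-5p, listed higher, had 5, 8 and 1 counts in H2O2 libraries and 1, 0 and 1 counts in untreated libraries. H2O2 replicate 3 was level with untreated replicates 1 and 3.

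MiR-1284 had 0, 0 and 1 counts in H2O2 libraries, against 1, 8 and 11 counts in untreated libraries. MiR-4428, from an intron of RYR2, a calcium release channel gene of the heart, had 1, 0 and 1 counts in H2O2 libraries, against 3, 5 and 9 counts in untreated libraries. MiR-3184-5p, which faces miR-423-3p over 21 bases, had 0, 1 and 0 counts in H2O2 libraries, against 3, 1 and 9 counts in untreated libraries. The groups of miR-1284 and miR-4428 did not overlap, while those of miR-3184-5p overlapped in CPM through replicate 2 of each group. For miR-1284 the highest H2O2 and the lowest untreated library had 1 read each, at 0.242 and 0.316 CPM. Only their library totals set them apart. Counts this low left the 3 differences untested.

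**Figure D4:**
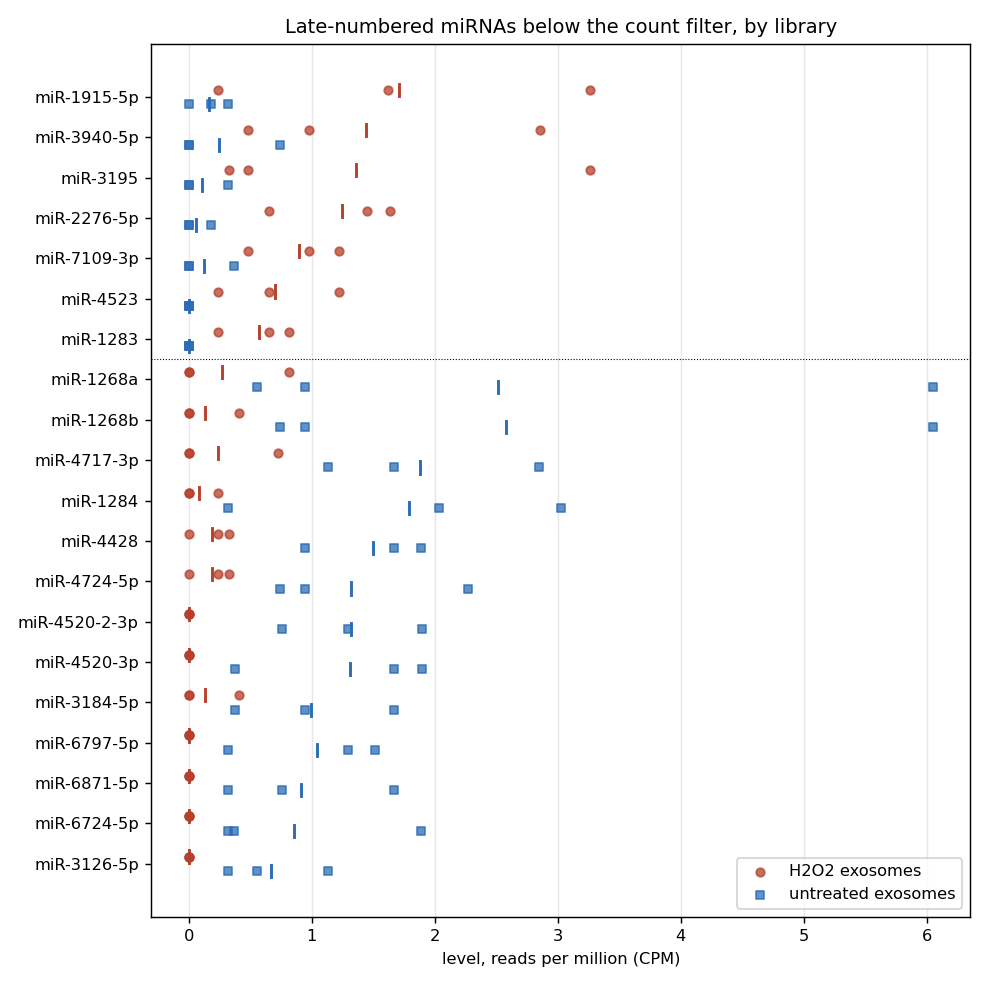
Level in CPM of the 20 late-numbered miRNAs with too few counts to be tested, with circles for H2O2 libraries, squares for untreated libraries and upright bars for group means. Entries over the dotted line were listed higher; for 6 of those under it every H2O2 library is at 0, and untreated replicate 2 sets miR-1268a and miR-1268b apart at 6.05 CPM.

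Properties that the choice of members did not use were spread over both directions. The seed was shared with some other human miRNA in 13 of the 46 members with a sequence, and with one numbered below 1000 in 4: miR-4429, miR-3184-5p, miR-4676-3p and miR-1271-5p. Among the known miRNAs listed, miR-1268a and miR-1268b shared their seed with each other, and no other member shared one with a listed known miRNA. The seeds of the predicted entries were not compared. A GC content of 70% or more was found in 8 members, 4 listed higher and 4 lower, while the 38 members under 70% were listed higher in 8 cases and lower in 30. Mature strands named 3p numbered 18, with 4 listed higher and 14 lower, those named 5p 18, with 5 and 13, and those with no arm in the name 16, with 6 and 10. These splits are counts of selected entries and carry no test.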

How the data were processed

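Exosome small RNA was sequenced from 3 H2O2-treated and 3 untreated HaCaT cultures. The submitters' processing notes name bcl2fastq, FastQC, cutadapt and Bowtie 1.1.1 upstream. Genome build, catalogue release, strand setting and counting rules were not given in the sources used here. Per the file headers, each library has a raw count by the authors. The deposited normalized value was found to be CPM, and dividing count by CPM returned the library totals. Also deposited were the authors' log2 fold change, its linear ratio and an unadjusted p-value. The 4 tables used here hold selected entries, which makes adjusted p-values smaller than they should be.

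Counts were modelled in edgeR 4.0.16 under R 4.3.3 (two-sided quasi-likelihood test), using recovered totals as library sizes with no composition factor. Entries reaching 5 counts in 3 or more libraries, known and predicted, entered 1 fit, and Benjamini-Hochberg adjustment ran over all 186 at a threshold of 0.05. A positive log2 fold change is higher in H2O2 exosomes, and its SE is the change divided by the square root of F. The fit was also run on simulated counts with known changes, as a check of the code. Those simulated entries were not selected for a difference, so that run cannot show how many calls here are false. P-values measure the spread between these libraries only, and low counts limit the precision.

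Hairpins and host genes came from GENCODE release 29 (GRCh38), and mature sequences from RefSeq (GRCh38.p14), matched by name. Full matches to transcripts were sought in GENCODE, which does not cover the large nuclear ribosomal RNAs (longest ribosomal entry 1559 bases). Members and lists were chosen with earlier results of these data known.

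Named miRNAs were the 10 of highest mean CPM, the 6 largest passing rises and 6 largest passing falls (no overlap, 10 CPM or more where higher), arms of 1 hairpin or shared seeds, the 6 most abundant with under 3 counts in each library of 1 group, and the 4 most abundant tested that did not pass. Others were named for position or size after their values were seen. As alternatives, scaling was by TMM, by median of ratios or by totals lacking miR-1246 reads. The filter was dropped or raised to 20 counts, and a replicate block was added. DESeq2 1.42.0 and limma 3.58.1 on log2(CPM + 1) and log2(CPM + 5) took the place of edgeR. Known entries alone, 1 entry per set of identical counts, adjustment to 2000 tests and the removal of each library were also run. A factor matching the authors' fold changes was added after seeing the data.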

Additional observations from a re-analysis of the deposited data

How the results depend on the processing

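No member turned direction under any alternative run. Of the counts of members that rose and fell (4 and 21), the following moved by over 1.5 times: under median-of-ratios scaling 2 rose, with totals freed of miR-1246 reads 12 fell, with a minimum of 20 counts 10 fell, and with p-values adjusted as if 2000 miRNAs had been tested 0 rose and 0 fell (edgeR; 28 members had an unadjusted p under 0.05). With 1 library left out, 0 to 4 rose and 1 to 11 fell. These last fits have fewer samples and, for the minimum of 20 counts, fewer members tested; for median-of-ratios scaling and the miR-1246 totals, which shift the median log2 fold change of all entries by -0.279 and 0.168, the cause beyond that shift was not tested. DESeq2 called 4 and 23, TMM scaling 4 and 24, and limma 5 and 22 with a pseudocount of 1. Without a filter 6 rose and 21 fell, and 12 of the 21 falls were kept. With the authors' fold-change factor, chosen after seeing the data, 4 rose and 15 fell. Whether replicate numbers pair the libraries was not settled. Deviations of same-numbered libraries correlated weakly, at 0.197, 0.077 and 0.227. Libraries of unlike number correlated at -0.252 to 0.122, the highest being H2O2 replicate 2 with untreated replicate 1. With the replicate block 4 rose and 22 fell. With the miR-1246 totals, the mean of miR-1301-3p in H2O2 exosomes came to 75.4 CPM. Depth limits the 20 untested members.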
